A study of Mus musculus with 24 samples.

Results

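The Slc25 genes encode the mitochondrial carriers, and their open chromatin was followed through mouse blood formation in 24 ATAC-seq peak lists. The members are the protein-coding genes of the GENCODE vM21 annotation whose symbol starts with Slc25a, with Slc25a37 set aside, and there were 46 of them among 21938 protein-coding genes. ATAC-seq uses a transposase that cuts and tags open DNA, and a peak is a stretch where such cuts pile up. A promoter was called open in a library when a peak lay within 500 bp of one of the gene's annotated starts, and peaks near a gene were those centred in the gene or up to 20 kb away from either end.

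Mitochondrial carriers are small proteins of the inner mitochondrial membrane that move metabolites, nucleotides, cofactors and ions between the cytosol and the matrix. They are encoded in the nucleus and imported into the organelle. Red cell precursors rely on several of them, because heme synthesis begins and ends in the matrix and needs glycine and iron there. Slc25a38 is the glycine carrier used for heme synthesis, Slc25a28 is mitoferrin 2, an iron carrier, and Slc25a39 and its relative Slc25a40 bring in glutathione. The other groups used here carry ADP, ATP and phosphate (4 members), ATP-Mg and phosphate (5), di- and tricarboxylates (4), amino acids (8), acylcarnitine (1), and cofactors and nucleotides (9). There are 3 relatives of the uncoupling proteins, 1 gene of mitochondrial dynamics, Slc25a46, and 7 other members.

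The lists cover 12 populations with 2 libraries each, all without a genetic change or treatment except in the cell lines. The 10 primary populations came from adult C57BL6 mice, 8 of them from bone marrow and MON and NEU from peripheral blood. LSK cells, a stem and progenitor gate with Sca1 and Kit on and lineage markers off, were grouped with the myeloid progenitors CMP and GMP as multilineage (6 libraries). CFUE, the erythroid colony formers, and ERY, the erythroblasts, made up the erythroid class (4). CFUMK, which form megakaryocyte colonies, and iMK, which are immature megakaryocytes, made up the megakaryocytic class (4). MON (monocytes) and NEU (neutrophils) made up the innate class (4), and MEP, the shared progenitors of megakaryocytes and red cells, stood alone. G1E is an immortalized erythroid progenitor line without GATA1, the main transcription factor of red cells, and G1E-ER4+E2 is a single G1E clone given back GATA1 as a fusion with the estrogen receptor and treated with estradiol. The populations were sorted by surface markers, and in such bulk libraries fewer cells with an open site and less opening per cell cannot be told apart. How far the 2 libraries of a population are separate mice is not given for each, so p-values measure the spread between these libraries.

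Libraries held between 52720 and 230877 peaks, and relative depth, read from the smallest step between scores, was 40.2% to 100% in primary libraries and 22.3% to 27.0% in the cell lines. The promoters of all 6 erythroid markers were called in every CFUE and ERY library, and at most 1 of them in a MON or NEU library. Of the 6 granulocyte markers, 4 and 5 were called in the NEU libraries, but also 6 and 5 in CFUMK, 5 and 5 in iMK and 6 and 4 in CMP. Of the 4 monocyte markers, 3 and 3 were called in MON and all 4 in each CFUMK and iMK library. Of the 5 megakaryocyte markers, 4 and 4 were called in CFUMK and 2 and 3 in iMK, against 5 and 5 in LSK. Marker calls thus did not set the megakaryocytic libraries apart, and these are named by their labels. All 5 B cell markers were also called in both NEU libraries. In each multilineage library 2 or 3 of them were called, in each megakaryocytic and MON library 2, in MEP 0 and 2, and in CFUE and ERY 0. The part of B cells in the NEU values was not tested. Of 4 runs of library numbers in the labels, LSK replicate 2, MON and NEU share 1, LSK replicate 1 is alone, and the cell lines have their own, so run and population cannot be told apart for the innate cells and the lines.

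The promoters the results turn on are printed from RefSeq on GRCm38.p6 (mm10), from 250 bases before to 50 after a start and read along the gene. They show the 3 ADP/ATP carriers with unlike call patterns, the glycine and glutathione carriers, and the members with the largest erythroid rise (Slc25a10) and fall (Slc25a36) of promoter score. Capitals mark letters of 6 motifs searched on both strands: the GATA motif (spelt AGATAA, or with a leading T as in TGATAA), GABPA type ETS (CCGGAAGT), PU.1 type ETS (GAGGAAGT), NRF1 (GCGCATGCG), KLF/SP (CCNCNCCC) and YY1 (ATGGCGGC).
Slc25a4 promoter, chr8:46211013-46211312, minus strand: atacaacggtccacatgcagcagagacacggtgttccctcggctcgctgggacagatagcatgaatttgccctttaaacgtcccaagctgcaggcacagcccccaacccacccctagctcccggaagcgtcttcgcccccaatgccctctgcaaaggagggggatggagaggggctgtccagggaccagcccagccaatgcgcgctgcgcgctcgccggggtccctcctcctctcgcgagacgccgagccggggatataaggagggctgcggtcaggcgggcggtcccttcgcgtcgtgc
Slc25a5 promoter, chrX:36795347-36795646, plus strand: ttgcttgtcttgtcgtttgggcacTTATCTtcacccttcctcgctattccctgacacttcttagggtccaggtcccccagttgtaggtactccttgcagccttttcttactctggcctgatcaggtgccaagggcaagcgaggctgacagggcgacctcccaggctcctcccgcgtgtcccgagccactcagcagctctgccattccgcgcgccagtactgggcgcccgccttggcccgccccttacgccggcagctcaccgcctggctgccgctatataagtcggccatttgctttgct
Slc25a31 promoter, chr3:40708621-40708920, plus strand: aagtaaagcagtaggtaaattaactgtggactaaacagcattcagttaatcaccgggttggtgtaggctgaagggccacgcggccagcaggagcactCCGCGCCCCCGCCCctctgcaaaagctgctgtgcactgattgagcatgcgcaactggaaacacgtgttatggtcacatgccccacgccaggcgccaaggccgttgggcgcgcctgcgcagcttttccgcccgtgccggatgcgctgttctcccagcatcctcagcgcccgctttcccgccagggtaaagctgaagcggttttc
Slc25a38 promoter, chr9:120110132-120110431, plus strand: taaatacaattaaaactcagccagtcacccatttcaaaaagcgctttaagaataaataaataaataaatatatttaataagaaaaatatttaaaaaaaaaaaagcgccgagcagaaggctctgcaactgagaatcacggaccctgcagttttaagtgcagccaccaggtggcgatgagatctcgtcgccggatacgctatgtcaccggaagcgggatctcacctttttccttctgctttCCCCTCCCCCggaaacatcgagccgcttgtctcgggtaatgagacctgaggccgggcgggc
Slc25a39 promoter, chr11:102407468-102407767, minus strand: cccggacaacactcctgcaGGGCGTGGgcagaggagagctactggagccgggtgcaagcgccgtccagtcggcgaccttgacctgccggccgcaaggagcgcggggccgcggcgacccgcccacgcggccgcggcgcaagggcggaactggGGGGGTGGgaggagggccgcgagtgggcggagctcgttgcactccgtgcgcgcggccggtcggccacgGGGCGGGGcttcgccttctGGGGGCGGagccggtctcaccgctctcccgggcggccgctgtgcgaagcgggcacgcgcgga
Slc25a10 promoter, chr11:120491587-120491886, plus strand: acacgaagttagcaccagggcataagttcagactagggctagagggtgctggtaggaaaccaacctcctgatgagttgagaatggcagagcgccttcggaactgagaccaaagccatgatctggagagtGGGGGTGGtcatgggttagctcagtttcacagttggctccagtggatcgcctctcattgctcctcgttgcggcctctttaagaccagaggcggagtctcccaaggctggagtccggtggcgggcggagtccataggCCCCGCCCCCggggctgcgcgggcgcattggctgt
Slc25a36 promoter, chr9:97110992-97111291, minus strand: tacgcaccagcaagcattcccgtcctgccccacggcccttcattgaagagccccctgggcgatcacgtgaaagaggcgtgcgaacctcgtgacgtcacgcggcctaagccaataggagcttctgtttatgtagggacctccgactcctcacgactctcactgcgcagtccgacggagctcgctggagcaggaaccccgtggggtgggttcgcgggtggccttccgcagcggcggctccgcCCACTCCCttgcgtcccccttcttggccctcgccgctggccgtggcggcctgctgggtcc

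Most carrier promoters were open in every library. Of 46 members, 29 (63.0%) were called in all 24 libraries, against 37.5% of all protein-coding genes, and 32 (69.6%) in all 20 primary libraries, against 42.4%. No library called Slc25a18 (a glutamate carrier), Slc25a34 or Slc25a41, which is 6.52% of members against 20.8% of all genes. The 4 genes of the heme, iron and glutathione group were called in all 24 libraries, as were 8 of 9 cofactor and nucleotide carriers, but 1 of 5 ATP-Mg and phosphate carriers. Counting a population when both libraries had a call, 40 members were called in LSK, in CMP and in GMP, 39 in MEP and CFUMK, 38 in CFUE and iMK, 37 in MON, 36 in NEU, and 35 in ERY, G1E and G1E-ER4+E2. Over all genes the share of called promoters was 61.9% in LSK and 46.9% in ERY, and over the members it was 87.0% and 76.1%.

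**Figure D1:**
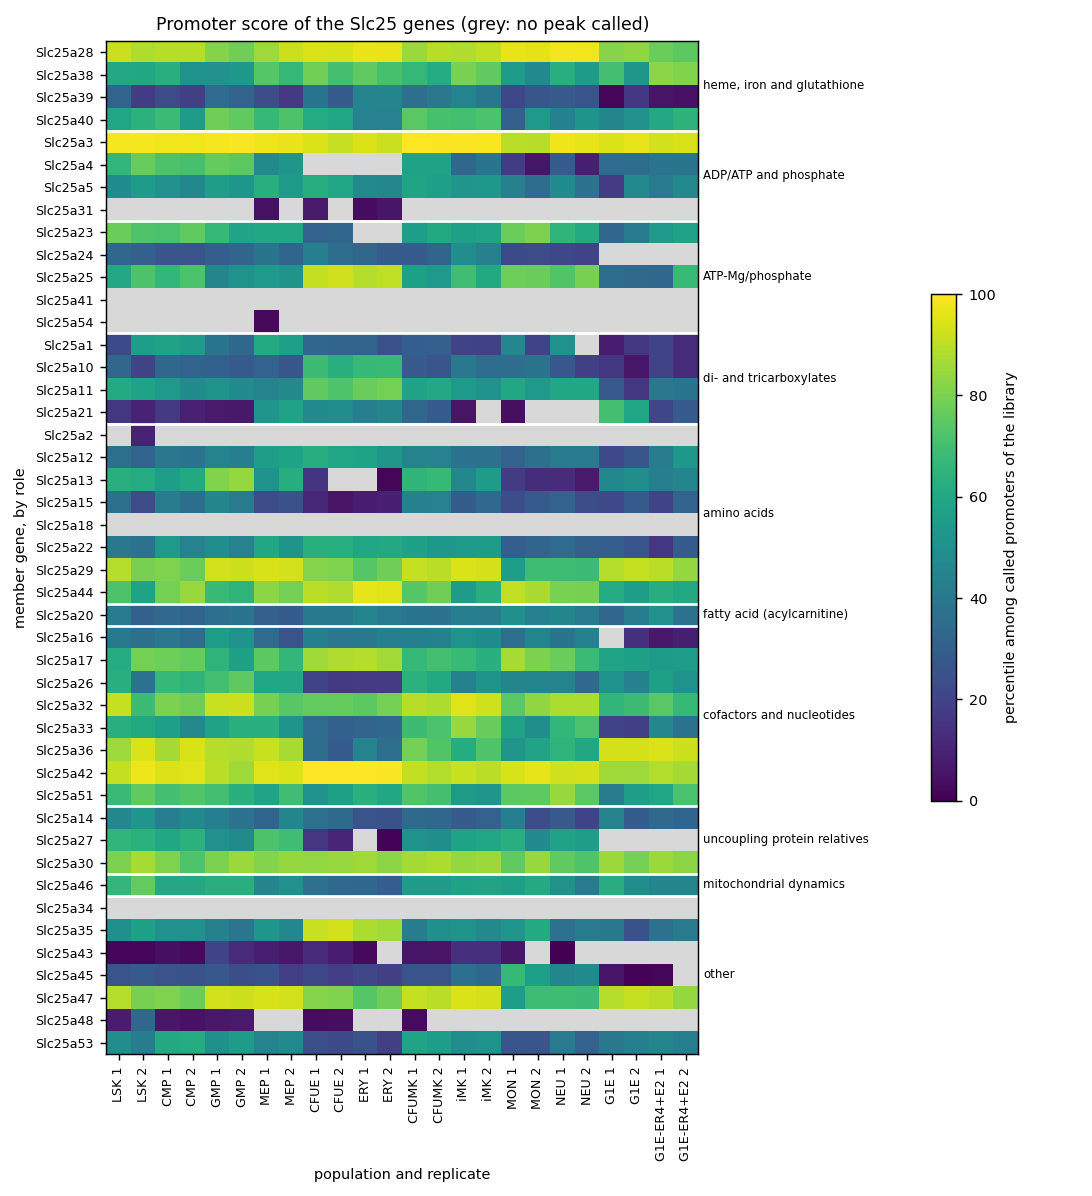
Heat map of 45 of the members (rows, by role) in the 24 libraries (columns), where colour gives the percentile of the member's promoter score among the called promoters of that library and grey means no peak. The heme, iron and glutathione rows have no grey cell, while Slc25a4 is grey in the 4 CFUE and ERY libraries.

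Of the 17 members not called in all 24 libraries, 8 had both libraries of some population called and neither of another. How many of all protein-coding genes do so was not counted. Over all genes, calls in both libraries also fell, from 61.9% in LSK to 48.3% in CFUE and 46.9% in ERY. Slc25a4, the ADP/ATP carrier of heart and muscle, was called in both libraries of every population except CFUE and ERY, where 0 of 4 libraries had a promoter peak. Its promoter score stood at the 66.4 and 76.7 percentile of called promoters in LSK, 72.0 and 70.9 in CMP, and 76.3 and 74.6 in GMP. It was at 47.3 and 53.1 in MEP, 57.8 and 57.7 in CFUMK, 32.9 and 38.7 in iMK, 29 and 8.22 in NEU, and 17.9 and 5.53 in MON. The erythroid cell lines kept a call, at 35.1 and 35.5 in G1E and 38.5 and 38.7 in G1E-ER4+E2. Every library without a call was thus CFUE or ERY, and no multilineage library was below the 66.4 percentile. No test was run on calls.

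Slc25a5, the ADP/ATP carrier of dividing cells, was called in all 24 libraries. Slc25a31, the carrier known from the testis, was called in MEP replicate 1, CFUE replicate 1 and both ERY libraries alone, at percentiles between 3.15 and 7.42, so its 4 calls were all weak. Slc25a13 (citrin, an aspartate and glutamate carrier best known from liver) stood between the 55.9 and 84.3 percentile in the 6 multilineage libraries and at 46.7 to 66.8 in the megakaryocytic ones. It was called in 1 CFUE library, at 15.0, and in 1 ERY library, at 1.35, and in the innate libraries it lay between 7.31 and 17.3. The erythroid and innate values of Slc25a13 did not overlap those of the progenitors. Slc25a23, an ATP-Mg and phosphate carrier, had no call in either ERY library, 31.5 and 33.1 in CFUE, 58.2 to 77.4 in the multilineage libraries and 77.5 and 80.1 in MON. The start of Crb3 lies within 1 kb of that of Slc25a23, so its peak may belong to either gene. Slc25a27, an uncoupling protein relative, had 1 ERY call (0.90 percentile), 15.8 and 10.2 in CFUE and 47.5 to 65.7 in the multilineage libraries. Cyp39a1 starts within 1 kb of a start of Slc25a27, so this peak too may belong to either gene.

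Slc25a21, the carrier of 2-oxoadipate, showed the opposite order. Its promoter stood at 6.82 to 17.2 in the multilineage libraries, 52.2 and 57.7 in MEP, 42.9 and 45.4 in ERY, 48.1 and 48.9 in CFUE and 33.2 and 29.1 in CFUMK. In iMK and MON 1 library each had a call (5.36 and 4.10), and NEU had none. The cell lines were at 70.1 and 58.8 in G1E and 21.3 and 28.6 in G1E-ER4+E2. MEP, CFUE and ERY were therefore above all multilineage and innate libraries.

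Among the rest, Slc25a24, Slc25a27, Slc25a43 and Slc25a48 had no promoter call in any of the 4 cell line libraries, which are the shallowest of the series. Slc25a24, an ATP-Mg and phosphate carrier, was at 20.2 to 49.0 in all 20 primary libraries. Slc25a43 was called in 17 primary libraries, at 20.2 or less, and Slc25a48 in 9, at 33.7 or less. Slc25a2, an ornithine carrier, was called in LSK replicate 2 alone and Slc25a54 in MEP replicate 1 alone. Slc25a1, the citrate carrier, lacked a call only in NEU replicate 2, Slc25a16 only in G1E replicate 1 and Slc25a45 only in G1E-ER4+E2 replicate 2. Slc25a45 was higher in the innate libraries (45.9 to 67.1) than in any other primary library (18.2 to 36.5).

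The graded measure was the highest peak score within 500 bp of a start, brought to 1 distribution over the libraries by quantile normalization and fitted in limma on the log2 scale. It covered 8230 genes called in all 24 libraries, 29 of them members, so a member that loses its promoter call, such as Slc25a4, is not in it. The deposited score has no stated unit, and it is used as a relative measure of peak height. Erythroid minus multilineage, 16 of the 29 (55.2%) were higher and 7 (24.1%) lower at an adjusted p of 0.05, where 39.7% and 33.8% of all fitted genes were. The median log2 difference was 0.47 over the members and 0.07 over all fitted genes. Members higher in erythroid cells had 3 of the 4 heme, iron and glutathione carriers, both fitted dicarboxylate carriers and 3 of 5 fitted amino acid carriers among them, while cofactor and nucleotide carriers split into 3 higher and 3 lower of 8.

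**Figure D2:**
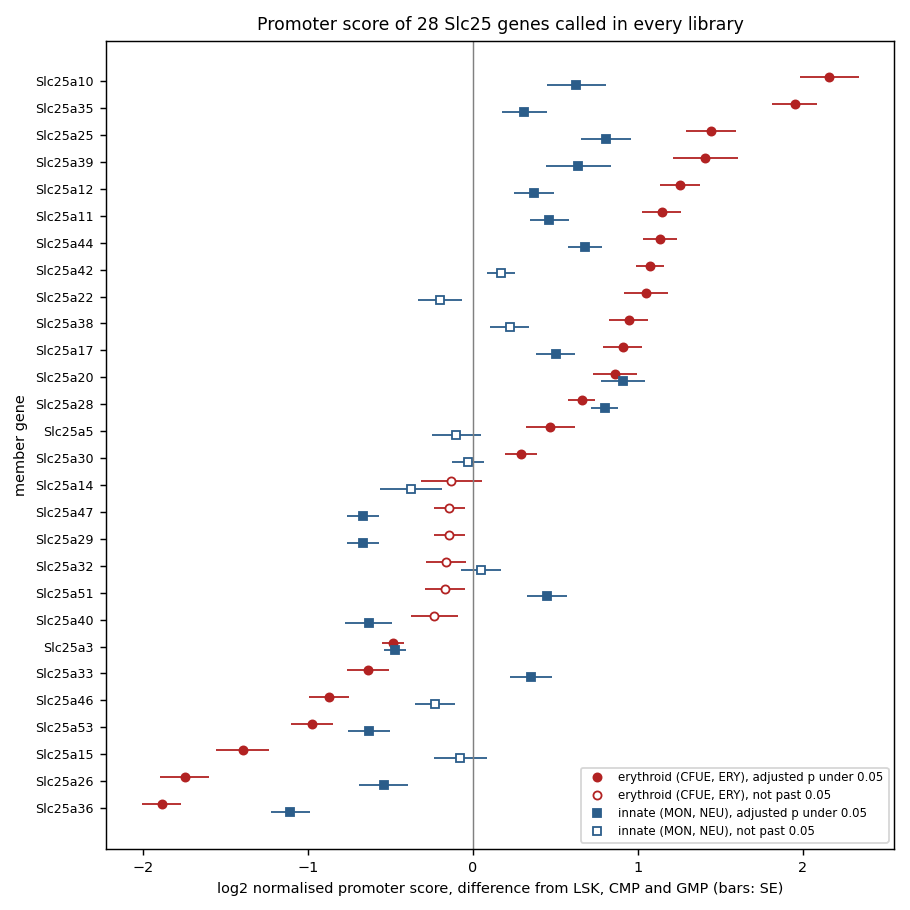
Log2 difference of normalised promoter score from the multilineage populations (LSK, CMP, GMP) for 28 of the fitted members, erythroid and innate, with bars of 1 SE and filled points for adjusted p under 0.05. Slc25a10 lies farthest to the erythroid side at 2.16 and Slc25a36 farthest to the other at -1.89.

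In the heme group, the normalised promoter score of Slc25a38 was 28.5 to 41.5 in the multilineage libraries (median 36.6), 61.7 and 52.4 in MEP, 74.7 and 63.5 in CFUE and 72.2 and 65.7 in ERY. It was 46.9 and 40.6 in CFUMK, 72.6 and 63.6 in iMK, 41.2 and 33.9 in MON and 49.8 and 43.6 in NEU. All MEP, CFUE, ERY and iMK libraries were above every multilineage one. The erythroid difference was 0.95 ± 0.12 (SE; limma, adjusted p = 6.86e-08), the megakaryocytic 0.61 ± 0.12 (adjusted p = 0.000543) and the innate 0.22 ± 0.12 (adjusted p = 0.1).

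Slc25a39 had a multilineage range of 7.80 to 15.1 (median 11.5). Its values were 9.75 and 7.11 in MEP, 35.2 and 36.5 in ERY, 26.0 and 21.6 in CFUE, 26.0 and 20.6 in iMK, 16.0 and 18.7 in CFUMK, 18.4 and 19.8 in NEU and 13.4 and 17.4 in MON. MEP lay within the multilineage range or just below it, and CFUE, ERY, CFUMK, iMK and NEU stood above it. MON replicate 1 lay within it and replicate 2 above, and iMK was close to CFUE. The erythroid difference was 1.41 ± 0.20 (adjusted p = 4.22e-07), CFUE minus MEP 1.51 ± 0.30 (adjusted p = 0.000142), megakaryocytic 0.87 ± 0.20 (adjusted p = 0.00208) and innate 0.64 ± 0.20 (adjusted p = 0.00613). The innate call was lost with median scaling (0.17), summed scores (0.37) or a 1 kb window (0.12). With a promoter window of 1 kb on each side the megakaryocytic difference turned to -0.29. Its paralog Slc25a40 did not pass in erythroid cells (-0.23 ± 0.14, adjusted p = 0.142) and was lower in innate cells (-0.63 ± 0.14, adjusted p = 0.000435). Its promoter lies within 1 kb of the start of Dbf4.

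Slc25a28 was 67.4 to 106.9 in multilineage libraries, 153 and 148 in ERY, 128 and 126 in CFUE, 144.6 and 136 in MON and 168 and 163 in NEU. Every erythroid and innate library was above the multilineage range, by 0.66 ± 0.08 and 0.80 ± 0.08 on the log2 scale (adjusted p = 4.25e-08 and 4.86e-09). The iron carrier promoter thus rose in both classes, and it did not pass in erythroid minus innate, where Slc25a38 did (0.72 ± 0.13, adjusted p = 2.63e-05).

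**Figure D3:**
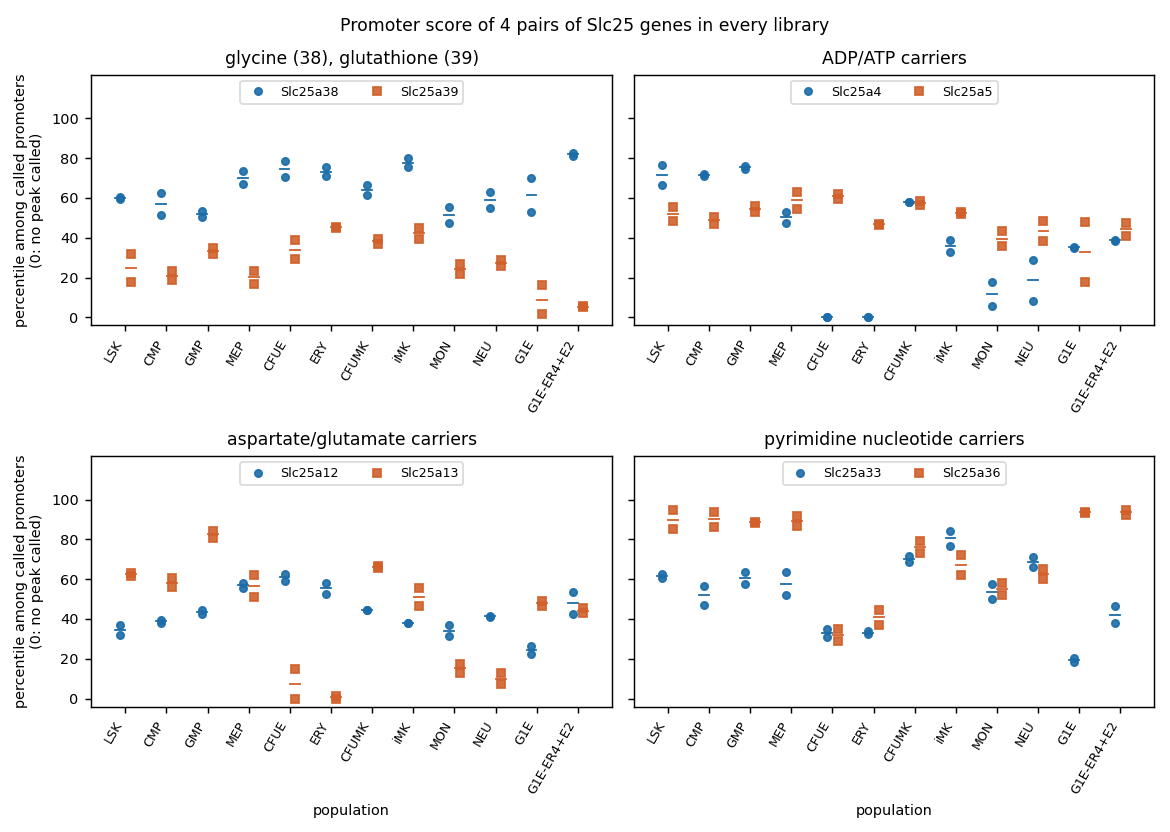
Percentile of promoter score among called promoters (vertical axis) by population for Slc25a38 and Slc25a39, Slc25a4 and Slc25a5, Slc25a12 and Slc25a13, and Slc25a33 and Slc25a36, with points for libraries and dashes for population means. Slc25a4 and Slc25a13 drop in CFUE and ERY, where Slc25a5 and Slc25a12 keep a peak in every library.

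Among ADP/ATP and phosphate carriers, Slc25a5 was 27.4 to 36.9 in multilineage libraries, 46.5 and 37.7 in MEP, 49.5 and 49.1 in CFUE and 37.2 and 37.5 in ERY. The erythroid rise was 0.47 ± 0.15 (adjusted p = 0.00621). Slc25a3, the phosphate carrier, had 153 to 203 in multilineage libraries, 132 and 118 in ERY, 130 and 113 in CFUE, 102.4 and 101.8 in MON and 156 and 144 in NEU. NEU replicate 1 lay within the multilineage range and MON far below it. It was lower in erythroid (-0.48 ± 0.07, adjusted p = 6.28e-07) and innate cells (-0.47 ± 0.07, adjusted p = 1.8e-06) and higher in megakaryocytic cells (0.25 ± 0.07, adjusted p = 0.00941).

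Both fitted dicarboxylate carriers rose in erythroid cells. Slc25a10, which exchanges malate and succinate for phosphate, was 10.6 to 15.8 in multilineage libraries, 15.5 and 13 in MEP, 58.2 and 54.2 in CFUE and 59.0 and 60.5 in ERY. It was 10.6 and 8.95 in CFUMK, 22.1 and 17.4 in iMK, 23.5 and 25.8 in MON and 17.4 and 15.2 in NEU. MEP did not leave the multilineage range, and the 4 erythroid libraries stood above all others, MON being the nearest. The erythroid mean was 4.48-fold that of the multilineage populations (2.16 ± 0.18, adjusted p = 3.1e-11), and erythroid minus innate was 1.53 on the log2 scale. CFUE minus MEP was 1.99 ± 0.27 (adjusted p = 1.01e-06). Slc25a11, the oxoglutarate and malate carrier, went from 28.0 to 40.7 in multilineage libraries to 69.1 and 66.7 in CFUE and 75.4 and 79.8 in ERY (1.15 ± 0.12, adjusted p = 2.66e-09), and its promoter is close to the start of Rnf167.

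Of the amino acid carriers, Slc25a12 (aralar, the paralog of citrin) was 17.4 to 23.0 in multilineage libraries, 37.8 and 41.3 in MEP, 50 and 49.1 in CFUE and 48.3 and 43.5 in ERY. Its rise was present in MEP, and the erythroid difference was 1.26 ± 0.12 (adjusted p = 6.21e-10). Slc25a13 lost its call in 2 of the same 4 erythroid libraries. Slc25a22, a glutamate carrier, and Slc25a44, a carrier of branched-chain amino acids, were higher by 1.05 ± 0.14 and 1.14 ± 0.10 (adjusted p = 1.25e-07 and 2.21e-10). Slc25a15, the ornithine carrier of the urea cycle, was lower, at 6.45 and 6.15 in CFUE and 7.55 and 8.72 in ERY against 12 to 24 (-1.40 ± 0.16, adjusted p = 1.79e-08). Slc25a29 shares its promoter peak with Slc25a47, so both have the same values, and they did not pass in erythroid cells (-0.14 ± 0.09, adjusted p = 0.174).

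Of the cofactor and nucleotide carriers, Slc25a36, a pyrimidine nucleotide carrier, had the largest fall of the 29. It was 83.2 to 123.7 in multilineage libraries, 109.3 and 91.9 in MEP, 22.9 and 21.4 in CFUE and 34.7 and 29.3 in ERY. It was 68.3 and 57.1 in CFUMK, 43.7 and 58.1 in iMK, 38 and 44.6 in MON, 52.3 and 48.9 in NEU, and 122.3 to 135.3 in the cell lines. All 12 libraries of the erythroid, megakaryocytic and innate populations were below the multilineage range, and the cell lines were not. The differences were -1.89 ± 0.12 in erythroid, -0.81 ± 0.12 in megakaryocytic and -1.11 ± 0.12 in innate cells (adjusted p = 1.36e-13, 3.8e-05 and 1.35e-08), and CFUE minus MEP was -2.18 ± 0.18 (adjusted p = 1.96e-10).

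Slc25a33, the other pyrimidine nucleotide carrier, was 28.2 to 44.5 in multilineage libraries, 24.7 and 26.8 in ERY, 22.8 and 23.1 in CFUE, 83.1 and 66.0 in iMK, 54.0 and 63.7 in NEU and 43.5 and 36.0 in MON. NEU stood above the multilineage range, and MON lay within it. It fell in erythroid cells by 0.63 ± 0.13 (adjusted p = 7.14e-05) and was higher in megakaryocytic (0.72 ± 0.13, adjusted p = 0.000214) and innate cells (0.35 ± 0.13, adjusted p = 0.0169). It was the one member called in opposite directions in erythroid and innate cells. When all peak scores of a promoter were summed, its erythroid difference was -0.21 and no longer passed.

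Slc25a26, the S-adenosylmethionine carrier, was 21.8 to 61.4 in multilineage libraries, 11.3 and 12.6 in CFUE and 13.4 and 14.4 in ERY (-1.75 ± 0.15, adjusted p = 6.33e-11). Slc25a42, a coenzyme A carrier, passed in erythroid cells (1.08 ± 0.09, adjusted p = 2.03e-11) and not in innate cells (0.17 ± 0.09, adjusted p = 0.0836), and the difference between them was 0.90 ± 0.09 (adjusted p = 5.91e-09). Slc25a51, the NAD carrier, was higher in innate cells (0.45 ± 0.12, adjusted p = 0.00207). Slc25a32, the folate carrier, passed in megakaryocytic cells (0.37 ± 0.12, adjusted p = 0.0257), where a sum of scores gave -0.37. Dcaf13 starts within 1 kb of a start of Slc25a32, so the peak may belong to either gene.

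In the remaining groups, Slc25a35 went from 20.4 to 39 in multilineage libraries to 112.5 and 122.5 in CFUE and 100.3 and 96.4 in ERY (1.95 ± 0.14, adjusted p = 1.44e-12). The ATP-Mg and phosphate carrier Slc25a25, whose promoter is close to the start of Naif1, rose by 1.44 ± 0.15 (adjusted p = 3.61e-09). Slc25a20, the carnitine and acylcarnitine carrier, rose in erythroid (0.86 ± 0.14, adjusted p = 2.6e-06) and innate cells (0.91 ± 0.14, adjusted p = 2.3e-06). Slc25a46, a gene of the outer membrane and of mitochondrial shape, and Slc25a53 fell in erythroid cells by 0.87 ± 0.12 and 0.98 ± 0.13 (adjusted p = 3.78e-07 and 1.26e-07). In all, 10 members have another protein-coding gene starting within 1 kb, Slc25a46 and Slc25a53 included.

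Innate minus multilineage, 13 of 29 members (44.8%) were higher and 7 (24.1%) lower, beside 33.6% and 30.1% of all fitted genes. This comparison and the erythroid one share the multilineage libraries. In libraries numbered 1196 to 1200 alone, with LSK replicate 2 as the only multilineage library, 7 members were higher and 3 lower, beside 15.9% and 14.03% of all fitted genes, so calls fell for members and genes alike. Slc25a26 turned from -0.54 to 0.45. Megakaryocytic minus multilineage, 8 (27.6%) were higher and 3 (10.3%) lower, beside 14.2% and 14.3%, and 7 passed without iMK replicate 1. The uncoupling protein relative Slc25a14 fell by 0.84 ± 0.19 (adjusted p = 0.00176). Erythroid minus innate, 17 (58.6%) were higher and 7 (24.1%) lower, beside 34.5% and 29.7%.

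CFUE minus MEP, which compares committed erythroid progenitors with the bipotent ones, gave 11 (37.9%) higher and 8 (27.6%) lower members, beside 31.1% and 27.2% of fitted genes. Slc25a35 rose by 1.88 ± 0.21 (adjusted p = 4.06e-08) and Slc25a26 fell by 1.83 ± 0.23 (adjusted p = 2.34e-07). Slc25a38 and Slc25a12, which already stood above the multilineage range in MEP, were not among the 19.

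G1E-ER4+E2 minus G1E compares the estradiol-treated clone given back GATA1 with the line without it. GATA1, the clone and the estradiol treatment cannot be told apart here. Here 3 (10.3%) were higher and 0 lower, beside 7.06% and 7.06% of fitted genes, and 9 members had an unadjusted limma p under 0.05 in either direction. Slc25a33 was 24.6 and 20.7 in G1E and 41.2 and 33.2 in G1E-ER4+E2 (0.71 ± 0.20, adjusted p = 0.0148). Slc25a12 was 26.0 and 27.1 against 37.7 and 47.3 (0.67 ± 0.19, adjusted p = 0.016). Slc25a38 was 71.7 and 49.6 against 90.9 and 87.0 (0.58 ± 0.18, adjusted p = 0.0341). The 2 libraries of each line did not overlap for these 3, which is no further support, since the same values picked them. None passed when the scores of a promoter were summed, and with 1 kb on each side Slc25a38 was at -0.07. Leaving out G1E replicate 2 gave 0.31 for Slc25a38 without a call.

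A fit on the 20 primary libraries alone, added after the data were seen, took in 3 further members. Slc25a24 rose in erythroid cells by 1.06 ± 0.14 (adjusted p = 8.12e-07), Slc25a16 by 0.47 ± 0.13 (adjusted p = 0.00357) and Slc25a45 by 0.45 ± 0.15 (adjusted p = 0.0118). Slc25a45 rose in innate cells by 1.96 ± 0.15 (adjusted p = 1.09e-09).

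Genes with related tasks went through the same fit. Of 12 genes for carrier import into the inner membrane, 4 were higher and 5 lower in erythroid cells, beside 39.7% and 33.8% of all fitted genes, and among them the receptor Tomm22 rose by 1.07 ± 0.13 and the kinase Agk fell by 2.13 ± 0.14 (adjusted p = 3.91e-08 and 3.77e-13). Of 22 other membrane transport genes 19 could be fitted, and 11 were higher and 1 lower. By the number of peaks near the gene, described next, 8 of the 12 and 14 of 21 were higher and 0 and 1 lower, beside 45.7% and 16.4% of genes. Slc25a37 (mitoferrin 1, the iron carrier of erythroid cells), which is not a member, rose by 0.79 ± 0.08 (adjusted p = 3.46e-09).

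The number of peaks near a gene was fitted as log2 of peaks plus 1 per 100000 called peaks of the library, for 17042 genes and all 46 members. As a peak is at most 150 bp, a wide open site counts as several. Windows ran from 41.4 to 524.8 kb (median 61.1). The median gene was 0.38 higher in erythroid and 0.20 higher in innate cells than in multilineage ones (0.13 and 0.08 after quantile normalization). Erythroid libraries held 97760 to 133674 peaks, innate ones 84341 to 163770 and multilineage ones 135309 to 230877, and the part of peak number in this shift was not tested. Values are also given less that shift. Erythroid minus multilineage, 19 members (41.3%) were higher and 4 (8.70%) lower, beside 45.7% and 16.4% of all genes. With quantile normalization the members came to 11 higher and 6 lower, beside 30.0% and 22.9% of all genes, so the split depends on the scaling for the members and for all genes.

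**Figure D4:**
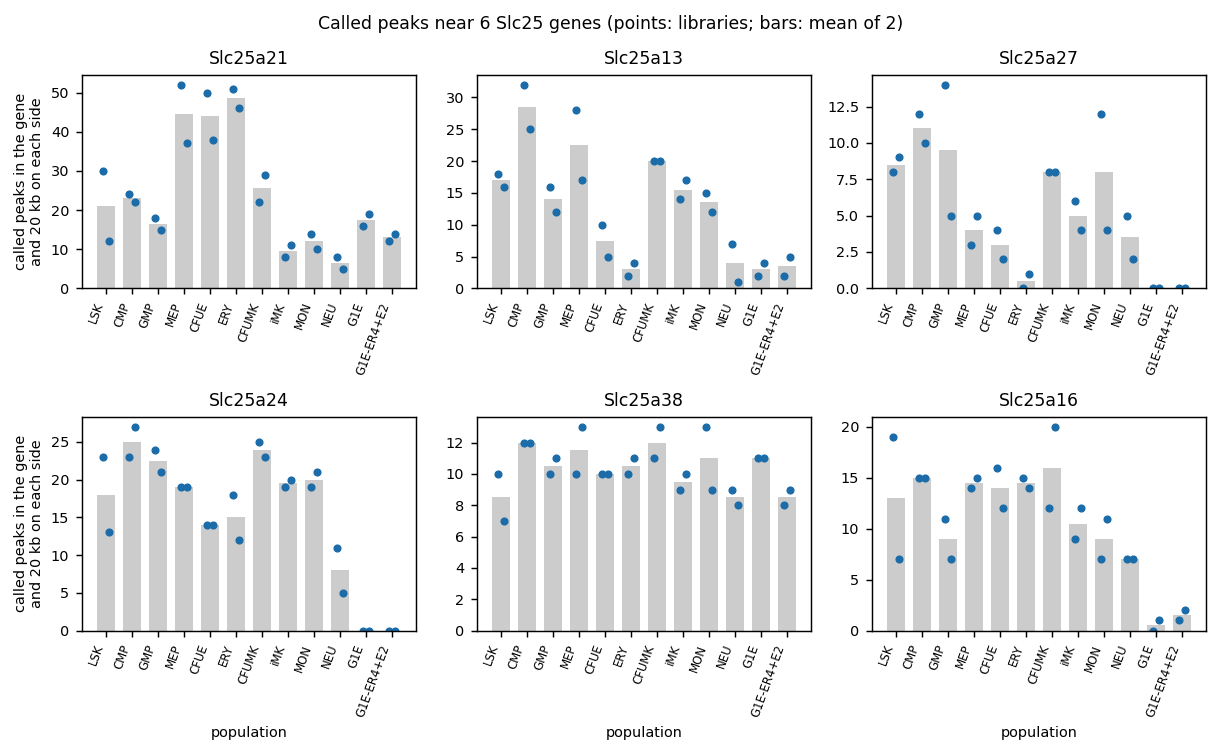
Number of called peaks in and within 20 kb of the gene (vertical axis) by population for Slc25a21, Slc25a13, Slc25a27, Slc25a24, Slc25a38 and Slc25a16, with 1 point per library. Slc25a21 peaks at 37 to 52 in MEP, CFUE and ERY, and Slc25a24 is at 0 in the 4 cell line libraries.

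Slc25a21 had the largest difference. Its window of 524.8 kb held 12 to 30 peaks in the multilineage libraries, 52 and 37 in MEP, 51 and 46 in ERY, 50 and 38 in CFUE, 22 and 29 in CFUMK, 8 and 11 in iMK, 14 and 10 in MON and 8 and 5 in NEU. G1E had 16 and 19 and G1E-ER4+E2 12 and 14. MEP, CFUE and ERY were above every other library in number. The cell line libraries hold the fewest peaks, and on the fitted log2 scale G1E (5.01 and 5.11) was above MEP (5.00 and 4.57) and below CFUE and ERY (5.25 to 5.59), with G1E-ER4+E2 at 4.38 and 4.42. The erythroid difference was 2.02 ± 0.15 (adjusted p = 4.4e-14), or 1.64 beyond the median gene, and erythroid minus innate 2.39 ± 0.17 (adjusted p = 6.28e-15). Next were Slc25a42 at 1.22 ± 0.22, Slc25a46 at 1.12 ± 0.26, Slc25a16 at 1.09 ± 0.21 and Slc25a54 at 0.95 ± 0.18 (adjusted p = 1.33e-05, 0.000307, 4.22e-05 and 3.91e-05), which are 0.57 to 0.84 beyond the median gene. In number, Slc25a46 had 3 to 5 peaks in erythroid and 2 to 6 in multilineage libraries, Slc25a16 12 to 16 and 7 to 19, and Slc25a42 7 to 9 and 4 to 9. Slc25a54 had 13 to 20 and 10 to 17. The ranges of all 4 overlapped. Slc25a38 had 10, 10, 10 and 11 peaks in erythroid and 7 to 12 in multilineage libraries, so its 0.82 ± 0.18 (adjusted p = 0.000131) came with no more peaks in number.

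Slc25a13 had 16 and 12 peaks in GMP, 18 and 16 in LSK, 32 and 25 in CMP, 28 and 17 in MEP, 10 and 5 in CFUE and 2 and 4 in ERY. It was lower in erythroid cells (-1.01 ± 0.25, adjusted p = 0.000933; -1.39 beyond the median gene), where its promoter was also weak or not called. Slc25a27 had 5 to 14 peaks in multilineage libraries, 0 and 1 in ERY, 4 and 2 in CFUE and 0 in each cell line library (-1.31 ± 0.29, adjusted p = 0.000201). Slc25a34 and Slc25a48 fell by 0.78 ± 0.28 and 0.68 ± 0.25 (adjusted p = 0.0158 and 0.0164). Slc25a24 and Slc25a48 had 0 peaks in all 4 cell line libraries, while Slc25a24 had 5 to 27 in the primary ones.

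Innate minus multilineage, 8 members (17.4%) were higher and 1 (2.17%) lower, beside 21.3% and 12.2% of genes. The largest were Slc25a46 at 0.89 ± 0.26 and Slc25a17, a peroxisomal carrier, at 0.77 ± 0.21 (adjusted p = 0.00741 and 0.00515). Slc25a13 was lower (-0.69 ± 0.25, adjusted p = 0.0311), and without NEU replicate 2 this was -0.28 and did not pass. The count itself was 4 without MON replicate 2 or NEU replicate 2 and 17 without NEU replicate 1.

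Megakaryocytic minus multilineage, 0 were higher and 1 (2.17%) lower, Slc25a32 at -0.81 ± 0.20 (adjusted p = 0.0266), beside 0.117% and 0.798% of genes, and 2 members had an unadjusted limma p under 0.05. This call was lost without LSK replicate 2, CMP replicate 2, or any 1 of the GMP, CFUMK and iMK libraries. Erythroid minus innate, 8 (17.4%) were higher and 2 (4.35%) lower, beside 25.9% and 14.3%, and 10 calls became 6 without CFUE replicate 2 or MON replicate 1 and 4 without ERY replicate 1. CFUE minus MEP, 0 members passed in limma in either direction, beside 3.64% and 5.46% of genes, and 4 had an unadjusted p under 0.05. With the top 50000 peaks of each library 37 members could be fitted, and 10 were higher and 3 lower, beside 20.2% and 14.4% of genes. There was 1 call without CFUE replicate 2, and there were 2 without either NEU library. G1E-ER4+E2 minus G1E, 0 were higher and 2 (4.35%) lower, Slc25a54 among them at -1.26 ± 0.29 (adjusted p = 0.00224), beside 6.81% and 4.04%, and 5 had an unadjusted p under 0.05. Slc25a54 had 1 and 1 peaks in G1E and 0 and 0 in G1E-ER4+E2, so its call rests on 2 peaks. Leaving out any 1 of the 4 cell line libraries left 1 call.

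Peaks found in both libraries of a population and merged over the populations gave 519 elements near members, 150 to 1506 bp long (median 255), of which 18 were counted for 2 members. Of these, 77 lay within 500 bp of a member's start. In all, 88 (17.0%) were called in all 10 primary populations, against 9.05% of the 161436 elements near any gene, and 135 (26.0%) in 1 primary population, against 27.1%. Sharing went with position, since 35 of the 77 promoter elements (45.5%) and 5 of 171 gene body elements (2.92%) were called in all 10. Upstream it was 20 of 127 (15.7%) and downstream 31 of 158 (19.6%). Elements near all genes were not counted by place, so this is not shown to be particular to the members. Place was set by the member's own starts, so an upstream or downstream element can lie at the start of another gene. How many do was not counted.

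An erythroid pattern meant a call in the 4 CFUE and ERY libraries with none in LSK, GMP, MON or NEU. It was found in 20 elements (3.85%; 2.49% near all genes), next to 18 members. An innate pattern meant a call in the 4 MON and NEU libraries with none in CFUE, ERY or MEP. It was found in 14 (2.70%; 3.24%), next to 12 members. The innate rule set no condition on LSK, CMP, GMP or the megakaryocytic libraries, so the erythroid and innate counts do not come from matching rules. For each member with an innate element over 1 kb from any start, the strongest of these was also called in GMP. An innate pattern thus means absence from MEP and erythroid cells, not presence in innate cells alone. The erythroid elements over 1 kb from a start with the strongest ERY peaks are shown for the 150 bases of the peak of ERY replicate 1, read on the plus strand of mm10, with GATA letters in capitals among the motifs searched.
Slc25a42 element, chr8:70201500-70201649, plus strand: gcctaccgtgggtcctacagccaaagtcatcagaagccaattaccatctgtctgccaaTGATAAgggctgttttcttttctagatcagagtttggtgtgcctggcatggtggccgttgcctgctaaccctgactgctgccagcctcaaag
Slc25a44 element, chr3:88411775-88411924, plus strand: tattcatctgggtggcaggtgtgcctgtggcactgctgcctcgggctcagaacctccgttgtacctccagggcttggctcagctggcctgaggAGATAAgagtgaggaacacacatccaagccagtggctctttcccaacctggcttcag
Slc25a23 element, chr17:57029778-57029927, plus strand: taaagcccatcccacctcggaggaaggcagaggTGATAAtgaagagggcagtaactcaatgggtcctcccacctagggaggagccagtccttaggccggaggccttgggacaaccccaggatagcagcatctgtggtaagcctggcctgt
Slc25a38 element, chr9:120112517-120112666, plus strand: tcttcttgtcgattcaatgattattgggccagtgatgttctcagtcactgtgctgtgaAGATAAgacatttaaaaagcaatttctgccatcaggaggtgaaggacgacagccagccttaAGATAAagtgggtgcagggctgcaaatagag
Slc25a30 element, chr14:75773583-75773732, plus strand: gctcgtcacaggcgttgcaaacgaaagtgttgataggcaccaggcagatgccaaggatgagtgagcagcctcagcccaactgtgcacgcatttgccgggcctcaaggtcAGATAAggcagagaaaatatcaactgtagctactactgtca

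Distances below run from the centre of an element to the nearest annotated start of the member, which can be an internal one. The Slc25a42 element is in the gene body, 10637 bp from a start, at a mean ERY percentile among peaks of 97.1. It was also called in MEP (94.6 and 93.5), CFUMK (89.2 and 93.0), G1E and G1E-ER4+E2. The Slc25a44 element, 13314 bp from a start in the gene body, was called in CFUE (94.3 and 93.2) and ERY (93.9 and 92.8) and in no other library. Another protein-coding gene starts 1462 bp from its centre, so the element may belong to either gene. The element printed for Slc25a23 lies downstream of it and also in the window of Slc25a41. It was at 92.3 and 90.4 in ERY and 88.9 and 90.9 in MEP, and it was also called in G1E and G1E-ER4+E2. Another protein-coding gene starts 1656 bp from its centre, nearer than either carrier gene. The Slc25a38 element is 2203 bp from a start, in the gene body. It was called in MEP (90.1 and 90.5), CFUE (89.6 and 84.5), ERY (83.4 and 84.8) and CFUMK (85.1 and 85.9). It was also called in G1E, the line without GATA1, and its printed peak holds the GATA letters at 2 places. The Slc25a30 element lies in the gene body, 1271 bp from an internal start and 13438 bp from the outermost one. It reached 94.8 and 92.0 in MEP and was also called in CFUMK and G1E-ER4+E2. All but that of Slc25a44 were thus also open in MEP, before the erythroid stage.

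**Figure D5:**
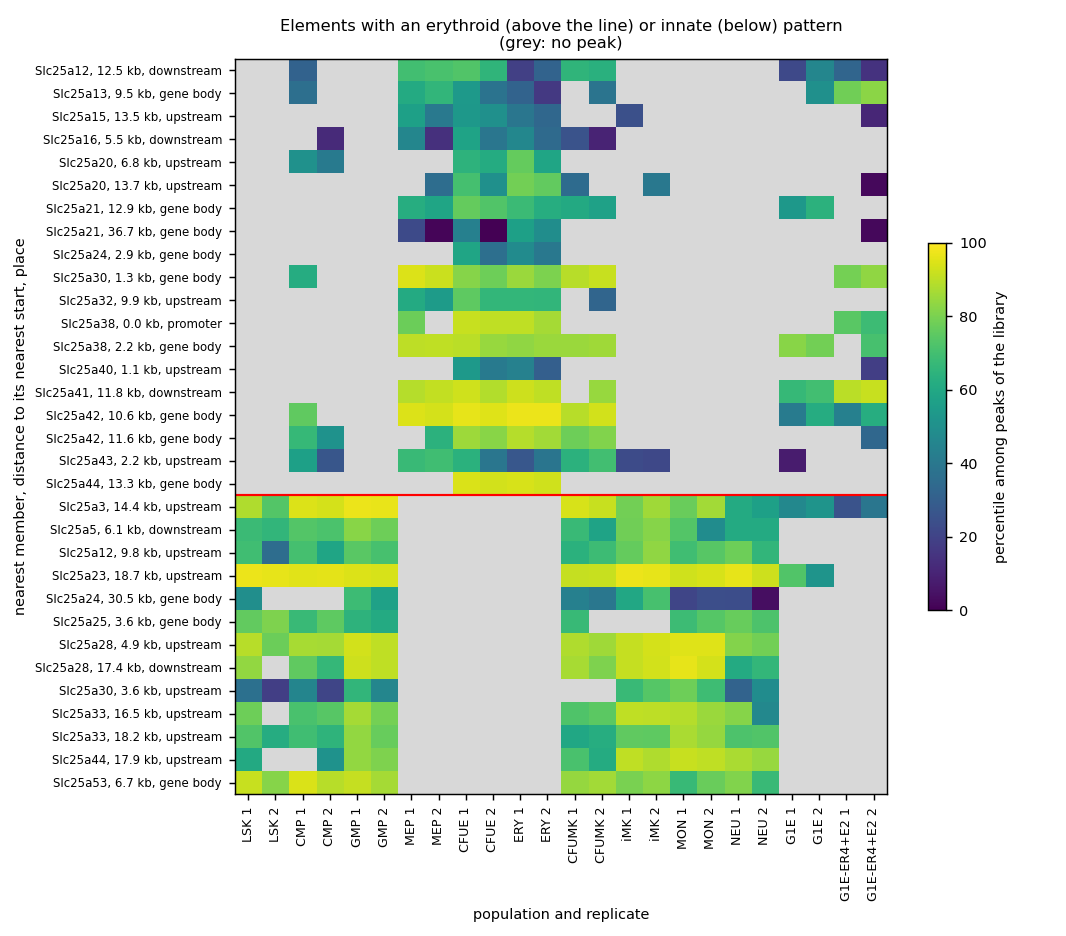
Heat map of 19 of the erythroid and 13 of the innate elements near members (rows, named by member) in the 24 libraries (columns), labelled with the distance to the member's nearest annotated start, where colour gives the percentile of the element's highest peak score among the peaks of the library and grey means no peak. Many erythroid elements are also coloured in MEP and CFUMK, and the Slc25a44 row in CFUE and ERY alone.

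On the innate side, an element 4887 bp upstream of Slc25a28 stood at 95.1 and 95.2 in MON and 81.5 and 78.5 in NEU. It was also called in both libraries of LSK, CMP, GMP, CFUMK and iMK (77.6 to 93.4), and its defining gap was in MEP, CFUE and ERY. Slc25a12, Slc25a23, Slc25a24, Slc25a30 and Slc25a44 had elements of both kinds.

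In 300 bases about the element centre, GATA letters were present in 13 of 20 erythroid elements (65.0%), against 53.1% of the 4025 erythroid elements near all genes, and in 2 of 14 innate ones (14.3%), against 16.4%. PU.1 type letters were present in 3 of 14 innate elements (21.4%), against 19.7%. Over all elements GATA letters were in 30.3% near members and 28.7% near all genes. RefSeq promoters were at hand for 36 of the 46 members, 46 sequences, of which KLF/SP letters were in 34 (73.9%), against 57.9% of 20150, and GATA letters in 6 (13%), against 15.4%.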

How the data were processed

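The labels give 24 libraries in 12 populations, grouped by population name. Per the methods and the submitters' processing notes, the authors aligned trimmed reads with Bowtie 0.12.8 (build mm10), dropped reads on the mitochondrial genome and unplaced contigs, and used SAMtools (1.6 in the notes), bedtools and, for separate peak calls in every library, HOMER. Peak scores were made by the authors and deposited with neither name nor unit. It was used here for ranks, for a normalised promoter score and, through its smallest step, for a relative depth that assumes a common total for all lists. How many sites a shallow library missed is not known, and no list of artefact regions was applied. Peak ends lie within the mm10 chromosomes.

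Genes and starts came from GENCODE vM21. The members and gene lists were chosen with earlier results of these data known, so no count is support for the choice. In R 4.3.3 with limma 3.58.1 (trend, robust), 12 group means sharing 1 estimate of the spread were fitted for all genes in both measures, and adjusted p-values are Benjamini-Hochberg over all fitted genes, two-sided, with a threshold of 0.05. Peak numbers were log2 of peaks plus 1 per 100000 called peaks, for genes with a mean of 3 peaks or more. Promoter scores were log2 and quantile normalized, for genes called in all 24 libraries. Both fits were also run on simulated data where few genes changed. In the real data many genes passed, so that run is no measure of the error here. Tables used Python 3.11.15, pandas 2.3.3 and numpy 2.4.6.

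Named with values are members past the threshold (at most 6 rises and 6 falls per comparison and fit), a set chosen for known roles, members with no promoter call, and those called in both libraries of one population and neither of another. A few others are named to make counts complete, after their values were seen. Alternatives were another prior count, filter, flank, promoter window, scaling, the top 50000 peaks, runs of library numbers and each library left out. A fit of promoters on the 20 primary libraries and one of peak numbers on the primary libraries alone, and a block by set of library numbers in both fits, were added after the data were seen. Promoter sequences of Slc25a2, Slc25a26, Slc25a27, Slc25a32, Slc25a35, Slc25a41, Slc25a44, Slc25a46 and Slc25a51 were not used here. The values of 1 member, which stays in the fits and counts, are not reported here.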

Additional observations from a re-analysis of the deposited data

Results flagged for a closer look

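The erythroid and innate differences from the multilineage populations were set against each other by their own contrast, erythroid minus innate, in limma (adjusted p of 0.05). Both start from the same multilineage libraries, and the MON and NEU libraries come from a run of library numbers that holds no erythroid library, so run and class cannot be told apart. The part of B cell material in the NEU libraries, where all 5 B cell marker promoters were called, was not tested.

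For promoter scores, 24 of the 29 fitted members passed, 17 (58.6%) higher and 7 (24.1%) lower, beside 34.5% and 29.7% of all fitted genes. Erythroid cells were higher for Slc25a35 (1.64 on the log2 scale), Slc25a10 (1.53), Slc25a22 (1.25), Slc25a42 (0.90), Slc25a12 (0.89), Slc25a39 (0.77), Slc25a38 (0.72), Slc25a11 (0.68), Slc25a25 (0.63), Slc25a5 (0.57), Slc25a29 and Slc25a47 with their common peak (0.52 and 0.52), Slc25a44 (0.45), Slc25a17 (0.41), Slc25a40 (0.40) and Slc25a30 (0.32). They were lower for Slc25a53 (-0.35), Slc25a51 (-0.62), Slc25a46 (-0.65), Slc25a36 (-0.78), Slc25a33 (-0.99), Slc25a26 (-1.21) and Slc25a15 (-1.32). Slc25a33 alone was called in both classes with opposite signs, -0.63 in erythroid and 0.35 in innate cells, where NEU was above the multilineage range and MON within it. Slc25a36, Slc25a26 and Slc25a53 were lower than the multilineage populations in both classes, and farther in erythroid cells. Slc25a40, Slc25a29 and Slc25a47 passed here because innate cells were lower (-0.63 for Slc25a40 and -0.67 for the shared peak), with no erythroid call. The Slc25a12 contrast turned to -0.32 when all scores of a promoter were summed.

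For peak numbers, 10 members passed, 8 (17.4%) higher and 2 (4.35%) lower, beside 25.9% and 14.3% of all fitted genes. Erythroid cells were higher for Slc25a21 (2.39), Slc25a16 (0.90), Slc25a40 (0.89), Slc25a14 (0.81), Slc25a42 (0.70), Slc25a54 (0.62), Slc25a2 (0.57) and Slc25a1 (0.53), and lower for Slc25a28 (-0.56) and Slc25a27 (-1.20). The median gene stood at 0.19 in this contrast. Slc25a14 and Slc25a28 passed here without a call in either class against the multilineage populations.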

How the results depend on the processing

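Replicate numbers follow accession order, but library numbers 842 to 848 and 850 to 856 form 2 sets with 1 library each of 7 populations. Over the 21 pairs of these populations, the difference between sets correlated at -0.17 to 0.25 over genes for peaks and -0.11 to 0.25 for promoter scores, above 0.1 in 6 and 4 pairs, so the numbers were not taken to pair the libraries. A replicate block by set, added after the data were seen, moved innate minus multilineage from 9 to 10 members for peaks, where Slc25a14 gained a call, and from 20 to 19 for promoter scores, where Slc25a35 lost one, and changed no other call of a member. Counts below are members past the threshold. For peaks, innate minus multilineage went from 9 to 17 with a prior of 3 peaks or the top 50000 peaks. All genes went from 21.3% higher and 12.2% lower to 36.9% and 9.49% (prior of 3) and 21.8% and 15.7% (top 50000). In libraries 1196 to 1200, where LSK replicate 2 is the only multilineage library, the median gene was at 0.02, against 0.20. Megakaryocytic went from 1 to 0 (5 kb flank), 4 (top 50000) and 0 (libraries 842 to 856). There, all genes went from 0.117% higher and 0.798% lower to 0.131% and 0.882%, 4.52% and 2.69%, and 0.135% and 0.669%. CFUE minus MEP went from 0 to 1 (prior of 3), 1 (5 kb), 2 (quantile) and 13 (top 50000, beside 20.2% and 14.4% of all genes higher and lower). The other shares of all genes were 8.09% and 4.86% (prior of 3), 4.69% and 6.53% (5 kb) and 3.44% and 7.16% (quantile). With a 5 kb flank 42 members could be fitted, and 37 with the top 50000 peaks. G1E-ER4+E2 minus G1E went from 2 to 1 (prior of 3), 1 (no filter), 0 (5 kb) and 0 (quantile). In the same order, all genes went from 6.81% higher and 4.04% lower to 2.73% and 3.13%, 4.45% and 2.84%, 5.06% and 3.57%, and 1.48% and 1.28%. For promoter scores, the median gene in innate minus multilineage was at 0.02 in libraries 1196 to 1200, against 0.04. Megakaryocytic went from 11 to 4 (summed scores) and 17 (libraries 842 to 856). All genes there went from 14.2% higher and 14.3% lower to 3.28% and 3.45%, and 22.8% and 21.0%. G1E-ER4+E2 minus G1E went from 3 to 0 (summed), and all genes from 7.06% and 7.06% to 1.92% and 2.14%. Members called in no population were 5, 8 with the top 50000 peaks and 3 with either library. The 519 elements became 343 (5 kb) and 305 (top 50000), the 88 shared by all 10 primary populations 57 (5 kb), the 20 erythroid 37 (top 50000) and the 14 innate 7 (5 kb).

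Reversed on the log2 scale were Slc25a44 peaks (-0.25) and Slc25a26 promoter (0.45) in innate cells in libraries 1196 to 1200, the Slc25a39 megakaryocytic promoter (-0.29) and the Slc25a38 cell line promoter (-0.0688) with 1 kb, and, with summed scores, Slc25a32 megakaryocytic (-0.37) and Slc25a12 erythroid minus innate (-0.32). The cause was not tested.

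With each library left out in turn, peak counts ranged 20 to 27 (erythroid), 4 to 17 (innate), 0 to 1 (megakaryocytic), 4 to 13 (erythroid minus innate), 0 to 2 (CFUE minus MEP) and 1 to 3 (cell lines). Promoter counts ranged 23 to 26, 18 to 22, 7 to 13, 22 to 25, 16 to 20 and 2 to 4 in the same order. Calls in all 10 primary populations ranged 32 to 33 and in none 4 to 5, and elements 526 to 590, with 87 to 91 shared, 20 to 27 erythroid and 14 to 21 innate. A lone library was assumed to vary like the others. Over the named members, leaving out a library kept 1415 promoter calls and lost 25, and kept 625 peak calls and lost 47. Whether a site without a peak in the shallow cell line libraries was closed cannot be told at this depth.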
